A study of Mus musculus with 19 samples.

Results

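The 10 genes described here carry calcium and magnesium through the kidney tubule, sense calcium, or make, break down and bind active vitamin D: Trpm6, Trpv5, Calb1, S100g, Slc8a1, Atp2b1, Casr, Vdr, Cyp24a1 and Cyp27b1. They were chosen by name for these roles, and all 10 were found among the 54146 genes of the files and were among the 13963 genes tested. RNA was sequenced from whole kidneys of B6C3F1/J mice at postnatal day 21 (3 weeks). The control group held 3 libraries from mice with floxed Dnmt3a and Dnmt3b and no Cre label (Dnmt3ab f/f). The KspCre DKO group held 2 libraries from mice with the same floxed genes plus KspCre, a Cre recombinase driven by the promoter of Ksp-cadherin (Cdh16), a gene of tubule epithelium, so that the 2 methyltransferase genes would be removed in tubule cells and kept in other cells of the organ. Dnmt3a and Dnmt3b methylate CG dinucleotides that were not methylated before, and the study asked what their loss does to the kidney and its fetal enhancers. Whether the libraries of each group are from different mice is not in the labels, and p-values therefore cover only the spread among these libraries, which may be technical.

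As background, the kidney recovers most filtered calcium and magnesium between cells, along the proximal tubule and the thick ascending limb, and adjusts the remainder through cells of the distal convoluted and connecting tubules. There Trpm6 and Trpv5 admit magnesium and calcium from the urine, calbindins carry calcium across the cell, and the exchanger Slc8a1 and the pump Atp2b1 move it into the blood. Active vitamin D, made by Cyp27b1 and inactivated by Cyp24a1, acts through its receptor Vdr to raise several of these transport genes, while the receptor Casr senses calcium in the thick ascending limb.

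New DNA methylation falls on CG dinucleotides, so the bases just upstream of the genes are shown with each CG in capitals. RefSeq (assembly GRCm38.p6) gave an upstream window of 250 bases for 8 of the 10 genes and none for Calb1 and Cyp24a1. The windows of S100g and Casr, the 2 genes with the smallest p-values below, hold few CGs, and the window of the vitamin D receptor gene Vdr holds more. They read 5′ to 3′ on the strand of the gene and end at the base before the transcript start in that table. A gene can have other starts: the windows used for Trpv5 and Trpm6 and the second window of Atp2b1 lie within the gene span given below, and the Casr window and the first of Atp2b1 reach into it.
S100g (chrX:162964600-162964849, minus strand): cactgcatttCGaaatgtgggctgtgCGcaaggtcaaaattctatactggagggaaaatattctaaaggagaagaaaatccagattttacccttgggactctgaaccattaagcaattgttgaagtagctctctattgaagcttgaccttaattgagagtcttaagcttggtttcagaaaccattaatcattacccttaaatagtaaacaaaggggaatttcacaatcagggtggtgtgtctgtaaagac
Casr (chr16:36562135-36562384, minus strand): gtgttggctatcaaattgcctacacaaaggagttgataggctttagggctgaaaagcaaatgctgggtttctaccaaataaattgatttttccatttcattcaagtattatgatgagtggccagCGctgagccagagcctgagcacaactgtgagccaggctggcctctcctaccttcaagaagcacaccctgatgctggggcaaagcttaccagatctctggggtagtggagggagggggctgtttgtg
Vdr (chr15:97908297-97908546, minus strand): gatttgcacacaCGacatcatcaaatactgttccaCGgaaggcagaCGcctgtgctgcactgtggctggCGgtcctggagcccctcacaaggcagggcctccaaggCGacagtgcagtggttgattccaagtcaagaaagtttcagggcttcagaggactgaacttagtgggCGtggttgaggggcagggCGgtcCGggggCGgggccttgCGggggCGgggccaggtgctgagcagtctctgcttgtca

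The S100g window held 2 CGs, and the windows of Casr, Trpv5 and Cyp27b1 held 1 each, against a median of 6 over 32851 upstream windows of the same length in the table. Windows with 2 or more CGs made up 81.2% of all, and windows with at least 1 made up 92.1%. Trpm6 had 7 CGs, Slc8a1 8 and Vdr 11. Atp2b1, a pump gene used in nearly all cells, had 43 and 41 CGs in the windows of its 2 annotated starts, and only 0.712% and 1.09% of windows had as many. AGGTCA and GGTTCA, 2 hexamers found in binding sites for the vitamin D receptor, were searched on both strands. Other hexamers found in such sites were not searched. S100g was the 1 gene of the 8 with a match to these 2 hexamers, which does not show that the other windows lack such sites. AGGTCA began 220 bases before the start, and the reverse complements of AGGTCA and GGTTCA began 107 and 149 bases before it. Of all windows, 14% held AGGTCA and 8.85% held GGTTCA in either direction. TATAAA, 1 form of the TATA box, was searched on the strand of the gene, and other forms were not. It was found in the Trpv5 window alone among the 8 genes, 43 bases before the start, and in 7.59% of all windows. Such matches describe letters, not bound sites, and the bisulfite libraries that would give methylation here are not analysed here.

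The libraries were unequal. KspCre DKO replicate 2 had 14710 genes above 0 TPM (an abundance per transcript length, scaled to the same sum in each library), against 18488 to 20510 in the other 4, and mitochondrially encoded genes held 31% of its TPM against 18.2% to 23.2%. TPM keep no read number, so the depth is unknown. Dnmt3a and Dnmt3b gave no check of the labels at gene level, with 13.2, 19 and 15.5 TPM (control) against 9.98 and 14.2 TPM for Dnmt3a and 1.82, 2.86 and 1.98 against 2.29 and 3.25 TPM for Dnmt3b. Checked against markers, the tissue was kidney: proximal tubule markers summed to 3200 to 6650 TPM, and 7 of 9 markers of parathyroid, bone and gut were at 0 in each library, Lct reached at most 0.02 TPM, and Vil1, a brush-border gene also of proximal tubule, stood at 22.3 to 36.6 TPM. Xist was at or below 0.03 TPM and the Y-linked Ddx3y at 2.68 to 13.2 TPM in all 5 libraries.

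No gene of the 10 passed the test between groups (limma on log2(TPM + 1), Benjamini-Hochberg adjusted p below 0.05 over all 13963 genes), where 0.165% of all tested genes passed, 0.0645% lower and 0.1% higher. At an unadjusted p below 0.05 there was 1, S100g, against 10.3% of all tested genes. The estimate was lower in KspCre DKO for 8 genes and higher for 2, with a median log2 fold change of -0.20, beside -0.14 for all tested genes, of which 61.7% were lower. In 3 genes, S100g, Trpv5 and Casr, both KspCre DKO libraries lay below every control library, and in no gene did both lie above. Among all tested genes the groups lay apart in 26.1%, wholly below in 15.6% and wholly above in 10.5%, and 3 genes of 10 are few to set against those shares. Reassigning 3 and 2 libraries gives 10 splits, so an exact permutation test of any one gene cannot reach a p below 0.1. In whole kidneys, fewer cells of a type and less RNA per cell cannot be told apart.

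**Figure D1:**
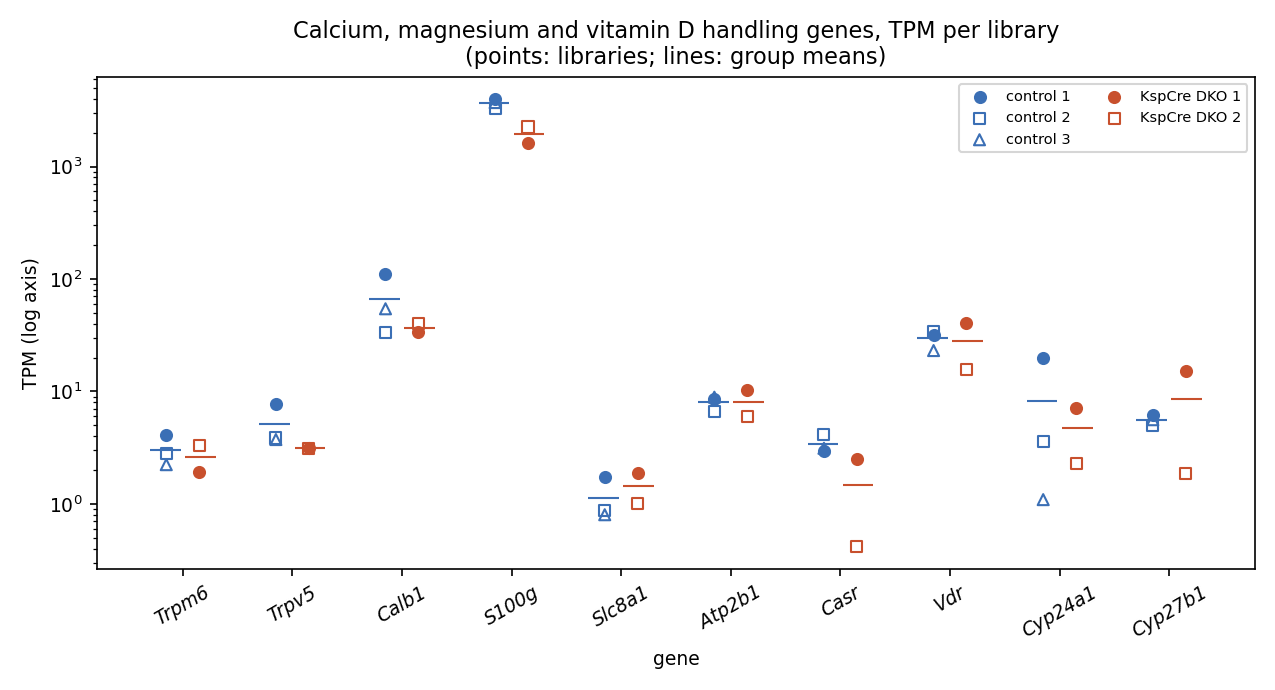
TPM of each gene (x axis) in the 3 control (blue) and 2 KspCre DKO (orange) libraries on a log axis, with points for libraries and short lines for group means. S100g is the most abundant at 1634 to 3970 TPM, and S100g, Trpv5 and Casr are the genes whose orange points all lie under the blue ones.

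TPM are per transcript length, so levels can be compared between genes. In the controls S100g came first at 3660 ± 334 TPM (SD, n = 3), then Calb1 at 65.9 ± 39.4, Vdr at 29.8 ± 5.98, Cyp24a1 at 8.17 ± 10.2, Atp2b1 at 8.02 ± 1.26, Cyp27b1 at 5.56 ± 0.596, Trpv5 at 5.11 ± 2.29, Casr at 3.38 ± 0.628, Trpm6 at 3.04 ± 0.965 and Slc8a1 at 1.13 ± 0.51 TPM. The control libraries of neighbours in this order overlapped for Calb1 and Vdr, for Cyp24a1 and Atp2b1, and from Cyp27b1 down to Trpm6. They did not overlap between S100g and Calb1, Vdr and Cyp24a1, Atp2b1 and Cyp27b1, or Trpm6 and Slc8a1. Trpv5, Casr, Trpm6 and Slc8a1 thus stood within a few TPM of the limit for testing, a mean of 1 TPM, where a fold change on the log2(TPM + 1) scale understates the change.

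Of the apical channels, Trpv5 (ENSMUSG00000036899.10, chromosome 6, 41651661 to 41681224, GRCm38.p6), the calcium channel, stood at 7.76, 3.85 and 3.73 TPM in control libraries and at 3.11 and 3.13 TPM in KspCre DKO. The groups did not overlap, yet 2 controls lay just above the KspCre DKO pair, and control 1 alone stood apart. Its log2 fold change was -0.51 ± 0.39 (SE), with a 95% interval of -1.40 to 0.39 (limma adjusted p = 0.687). Under median-of-ratios scaling or quantile normalization the Trpv5 groups overlapped, and without control replicate 1 the log2 fold change was -0.22. Trpm6 (ENSMUSG00000024727.8, chromosome 19, 18730177 to 18892521), the magnesium channel, stood at 4.11, 2.79 and 2.23 TPM against 1.93 and 3.29 TPM. These groups overlapped, with a log2 fold change of -0.16 ± 0.39 (SE; 95% interval -1.07 to 0.74, limma adjusted p = 0.913). The intervals of both channels reach past -1 on the log2 scale on one side and above 0 on the other.

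S100g (ENSMUSG00000040808.4, chromosome X, 162961992 to 162964599) encodes calbindin-D9k, a small calcium-binding protein of the distal tubule cell. It stood at 3970, 3306 and 3706 TPM in control libraries and at 1634 and 2247 TPM in KspCre DKO, so that each KspCre DKO library lay below each control. The KspCre DKO mean was 53% of the control mean, 1940 ± 433 TPM (SD, n = 2) against 3660 ± 334 (SD, n = 3). The log2 fold change was -0.93 ± 0.23 (SE), with a 95% interval of -1.45 to -0.41 and an unadjusted p of 0.00318, which ranked 221 among the 13963 genes and did not pass the adjustment (limma adjusted p = 0.201). The estimate was lower in all 16 refits, from -1.16, when KspCre DKO replicate 2 was left out, to -0.70, when replicate 1 was, and its adjusted p lay between 0.0992 and 0.728. The gene overlaps Ctps2 in RefSeq, and with the strand setting not given in the sources used here the reads of shared bases cannot be told apart. Ctps2 stood far lower, at 48.6, 47.6 and 48.5 TPM in control libraries against 45.4 and 25.3 TPM.

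Calb1 (ENSMUSG00000028222.2, chromosome 4, 15881264 to 15906709), which encodes the larger calbindin of the same cells, stood at 110, 33.7 and 54.3 TPM in control libraries against 33.7 and 40.1 TPM. Control 1 was high and control 2 as low as KspCre DKO replicate 1, so the groups overlapped. Its log2 fold change was -0.66 ± 0.45 (SE; 95% interval -1.70 to 0.38, limma adjusted p = 0.654), and without control replicate 1 it was -0.21. The controls differed among themselves 3.26-fold in TPM, whereas the KspCre DKO pair differed 1.19-fold. On the log2(TPM + 1) scale only 3.75% of tested genes had a control range as large.

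The basolateral genes showed no difference that these libraries could resolve. Atp2b1 (ENSMUSG00000019943.10, chromosome 10, 98914630 to 99026143), the plasma membrane calcium pump, stood at 8.61, 6.58 and 8.88 TPM against 10.2 and 6.04 TPM, so that 1 KspCre DKO library lay above and 1 below all controls. Its log2 fold change was -0.01 ± 0.34 (SE; 95% interval -0.79 to 0.76, limma adjusted p = 0.995), and it was slightly above 0 under each scaling alternative. Slc8a1 (ENSMUSG00000054640.14, chromosome 17, 81373105 to 81738387), the sodium-calcium exchanger, stood at 1.72, 0.88 and 0.80 TPM against 1.88 and 1.0 TPM. This was the lowest of the 10 genes, and each group held 1 library well above its others. The log2 fold change was 0.20 ± 0.45 (SE; 95% interval -0.82 to 1.21, limma adjusted p = 0.906).

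**Figure D2:**
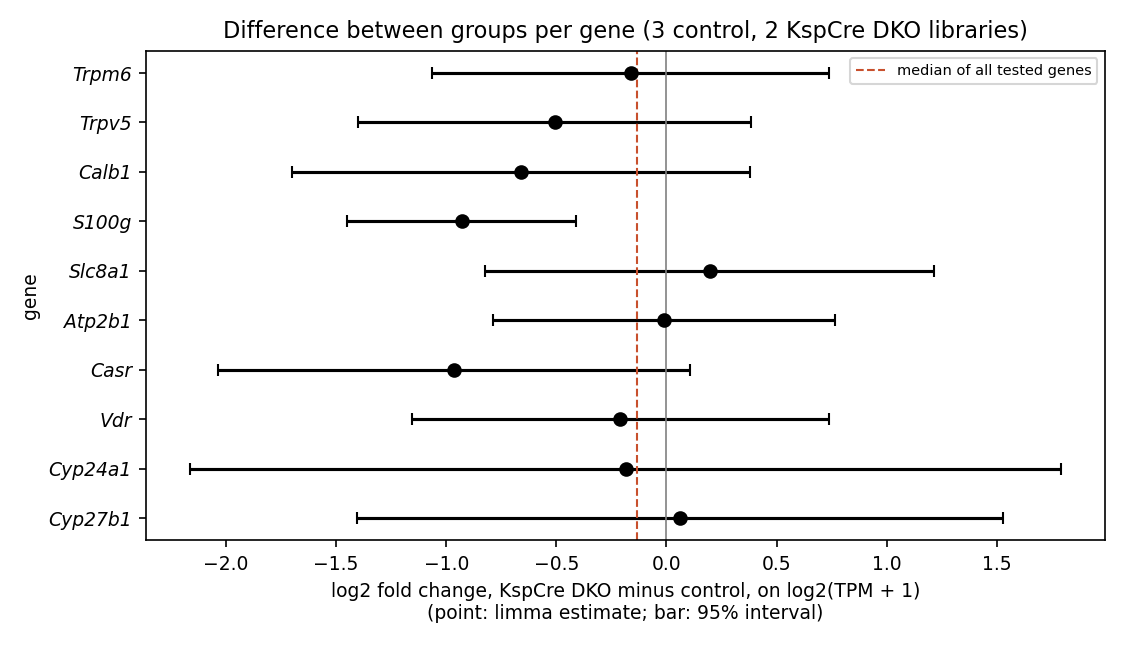
Log2 fold change (x axis, KspCre DKO minus control on log2(TPM + 1)) of each gene (y axis) as limma estimates with 95% intervals, beside the median of all tested genes at -0.14 (dashed). The S100g interval, -1.45 to -0.41, is the one that does not reach 0, and that of Cyp24a1, -2.16 to 1.79, is the widest.

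Of the receptors, Casr (ENSMUSG00000051980.13, chromosome 16, 36490585 to 36562141), the calcium-sensing receptor, stood at 2.93, 4.10 and 3.12 TPM in control libraries against 2.50 and 0.42 TPM. The groups did not overlap, but KspCre DKO replicate 1 lay close under the controls and the distance came from replicate 2, so the KspCre DKO libraries differed 5.95-fold. The log2 fold change was -0.97 ± 0.47 (SE; 95% interval -2.04 to 0.11, limma adjusted p = 0.528). It was -1.62 without KspCre DKO replicate 1 (limma adjusted p = 0.058) and -0.32 without KspCre DKO replicate 2. Markers of the thick ascending limb, the segment where Casr is known to act, stood lower as well: 7 of 8 had lower estimates and 1 a higher one, none passed the test, and they summed to 1900 to 2050 TPM in control libraries against 1010 TPM in KspCre DKO replicate 1 and 557 TPM in replicate 2. The most abundant, Wfdc15b and Umod, stood at 568, 597 and 710 against 312 and 191 TPM and at 802, 489 and 542 against 285 and 193 TPM. Taken relative to the mean log2 level of these 8 markers, Casr was at -4.51, -4.35 and -4.88 in the controls and at -4.07 and -4.44 in KspCre DKO, overlapping groups with a difference of 0.33, the opposite sign. With each marker left out in turn this difference stayed between 0.14 and 0.54. At the low level of Casr, adding 1 TPM shrinks its change more than that of the abundant markers. With 0.1 TPM added instead, the log2 fold change of Casr itself was -1.57. The 8 markers differed by -1.29 on log2(TPM + 1), and their difference with 0.1 TPM added was not computed. The sign of the relative difference is thus known for log2(TPM + 1) only and may turn with the amount added. The value of 0.33 does not show a rise of Casr relative to its segment. The part of these markers in the Casr values was not tested further.

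Vdr (ENSMUSG00000022479.15, chromosome 15, 97854427 to 97908296), the vitamin D receptor, stood at 32, 34.4 and 23.1 TPM in control libraries against 40.5 and 15.7 TPM. One KspCre DKO library lay above all controls and the other below them. The log2 fold change was -0.21 ± 0.41 (SE; 95% interval -1.16 to 0.74, limma adjusted p = 0.89), and it became 0.45 when KspCre DKO replicate 2 was left out and -0.87 when replicate 1 was. Relative to the proximal tubule markers described below for Cyp27b1, Vdr stood at -2.36, -1.78 and -2.23 in log2 units (control) and at -2.44 and -2.52 (KspCre DKO), close together and just below the controls, but overlapping them for 2 of the 10 markers when left out in turn; Vdr is made in other segments too.

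The 2 vitamin D enzymes had the largest standard errors of the 10 genes, Cyp24a1 through its controls and Cyp27b1 through the KspCre DKO pair. Cyp27b1 (ENSMUSG00000006724.12, chromosome 10, 127048246 to 127054884), which makes active vitamin D, stood at a narrow 6.13, 4.94 and 5.60 TPM in the controls but at 15.3 and 1.85 TPM in KspCre DKO. The KspCre DKO libraries differed 8.29-fold in TPM, and on the log2(TPM + 1) scale 1.62% of tested genes had a range as large. These libraries lay on either side of the controls. The log2 fold change of 0.06 ± 0.64 (SE; 95% interval -1.40 to 1.53, limma adjusted p = 0.981) thus averages opposite deviations, 1.32 when KspCre DKO replicate 2 was left out and -1.20 when replicate 1 was. Markers of the proximal tubule, where Cyp27b1 is known to be made, were also apart in these 2 libraries: they summed to 6650 TPM in KspCre DKO replicate 1 and 3200 TPM in replicate 2, against 3620 to 5240 TPM in the controls, with 7 of 10 higher, 3 lower and none called. Of the most abundant, Miox stood at 2386, 1824 and 1759 against 2118 and 1483 TPM and Slc34a1 at 1831, 1527 and 1119 against 3053 and 1104 TPM. Relative to the mean log2 level of the 10 markers, Cyp27b1 still lay on either side of the controls, at -3.78 and -5.06 against -4.58, -4.35 and -4.10.

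Cyp24a1 (ENSMUSG00000038567.5, chromosome 2, 170482957 to 170497145), which inactivates vitamin D and is itself strongly raised by it, stood at 19.8, 3.60 and 1.09 TPM in control libraries against 7.09 and 2.27 TPM. The controls differed 18.2-fold, a spread on the log2(TPM + 1) scale that 0.544% of tested genes reached, and both KspCre DKO values lay within it. The log2 fold change was -0.19 ± 0.86 (SE; 95% interval -2.16 to 1.79, limma adjusted p = 0.957), and without control replicate 1 it was 0.73. The gene overlaps Pfdn4 in RefSeq, which stood at 23.8, 21.6 and 26.2 TPM against 18.4 and 18.2 TPM and did not share this spread. Control 1, the highest library for Cyp24a1, was also the highest control for Trpv5, Calb1, Trpm6, S100g, Slc8a1 and Cyp27b1, 7 of the 10 genes, where control 1 is the highest control for 36.7% of all tested genes. KspCre DKO replicate 2 lay below replicate 1 for 6 of the 10 genes, against 79.3% of all tested genes.

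**Figure D3:**
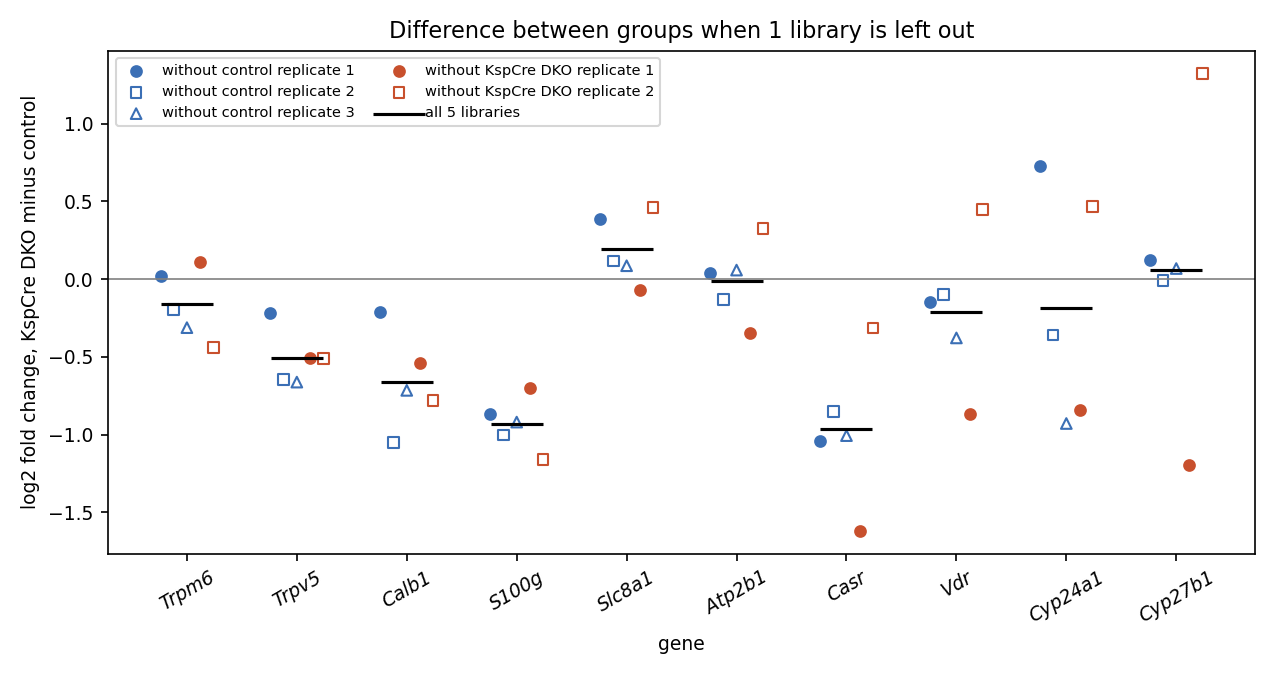
Log2 fold change (y axis, KspCre DKO minus control) of each gene (x axis) with all 5 libraries (black line) and with each library left out (symbols). Trpv5, Calb1, S100g and Casr stay below 0 throughout, and Cyp27b1 ranges from -1.20 to 1.32.

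Marker genes of the connecting tubule and the distal convoluted tubule, the segments of the transport genes, did not all move in the same direction. Whether they measure the number of such cells was not tested. Of 8 markers of the distal convoluted tubule 6 were lower and 2 higher, and they summed to 424 to 487 TPM in the controls and 362 to 442 TPM in KspCre DKO. Slc12a3, the thiazide-sensitive cotransporter, stood higher at 155, 133 and 127 against 231 and 181 TPM, and the kinase gene Wnk1 lower at 218, 163 and 170 against 117 and 121 TPM. Of the 4 connecting tubule markers outside the 10 genes 3 were lower and 1 higher, with sums of 2890 to 5190 against 3460 to 3800 TPM. Their most abundant were the protease gene Klk1 at 5122, 4766 and 2824 against 3379 and 3721 TPM and the sodium channel subunit gene Scnn1b at 50, 63.5 and 45.7 against 45.5 and 43.1 TPM, and Klk1 made up nearly all of the sums. The higher one, Tbx3, a transcription factor gene named here after its values were seen, stood at 6.02, 3.27 and 7.15 against 26.3 and 30.6 TPM, which differ by 2.23 on the log2 scale (limma adjusted p = 0.0705). None of these markers passed the test.

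Relative to the mean log2 level of these 12 markers, S100g stood at 6.81, 6.49 and 6.71 in the controls and at 5.53 and 6.39 in KspCre DKO, a difference of -0.71. KspCre DKO replicate 2 lay just under the lowest control, and this separation rested on Tbx3: with Tbx3 left out of the markers S100g stood at 6.60, 6.21 and 6.52 against 5.50 and 6.41, overlapping groups with a difference of -0.49. With any 1 of the other 11 markers left out the S100g groups did not overlap. The same difference was -0.44 for Calb1, -0.29 for Trpv5, 0.05 for Trpm6 and 0.41 for Slc8a1, with overlapping groups for these 4 genes. Without Tbx3 they were -0.22, -0.07, 0.28 and 0.63, and both KspCre DKO libraries then lay above the controls for Slc8a1. The level of the 12 markers themselves differed by -0.22, from 5.16 ± 0.034 (SD, n = 3) to 4.95 ± 0.279 (SD, n = 2), and by -0.44 without Tbx3. Principal cells of the collecting duct, the segment next to these, had 8 of 10 markers higher and 2 lower, with sums of 1050 to 1100 against 2620 and 2630 TPM. Aqp2, the vasopressin-regulated water channel, stood at 347, 240 and 426 against 1414 and 1218 TPM (limma adjusted p = 0.0512), and Fxyd4 at 277, 340 and 228 against 541 and 755 TPM. None of the 10 was called, but 1 or 2 were under each scaling alternative. The part of such shifts between segments in the values of the transport genes was not tested.

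Markers of other cells differed too, none past the test. All 9 markers of intercalated cells had lower estimates (8 of 9 under 2 of the scaling alternatives), led by Slc4a9 and Atp6v1g3, with sums of 279 to 490 against 244 and 265 TPM. The 7 tested fibroblast and matrix markers, led by Col3a1 and Col1a2, were lower too (101 to 243 against 80.5 and 117 TPM), as were 7 of 8 leukocyte markers (6 of 8 under each scaling alternative), with sums of 102 to 271 against 147 and 159 TPM. Of the 2 most abundant leukocyte markers, however, Cd74 had a log2 fold change of -0.008 and Cd52 was the 1 with a higher estimate, 0.68. Red blood cell genes, led by Hba-a1 and Hba-a2, were higher in 5 of 5, with sums of 983 to 8330 against 8500 and 9900 TPM. Endothelial markers, led by Plvap and Emcn, overlapped between groups in their sums (254 to 424 against 260 and 400 TPM).

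**Figure D4:**
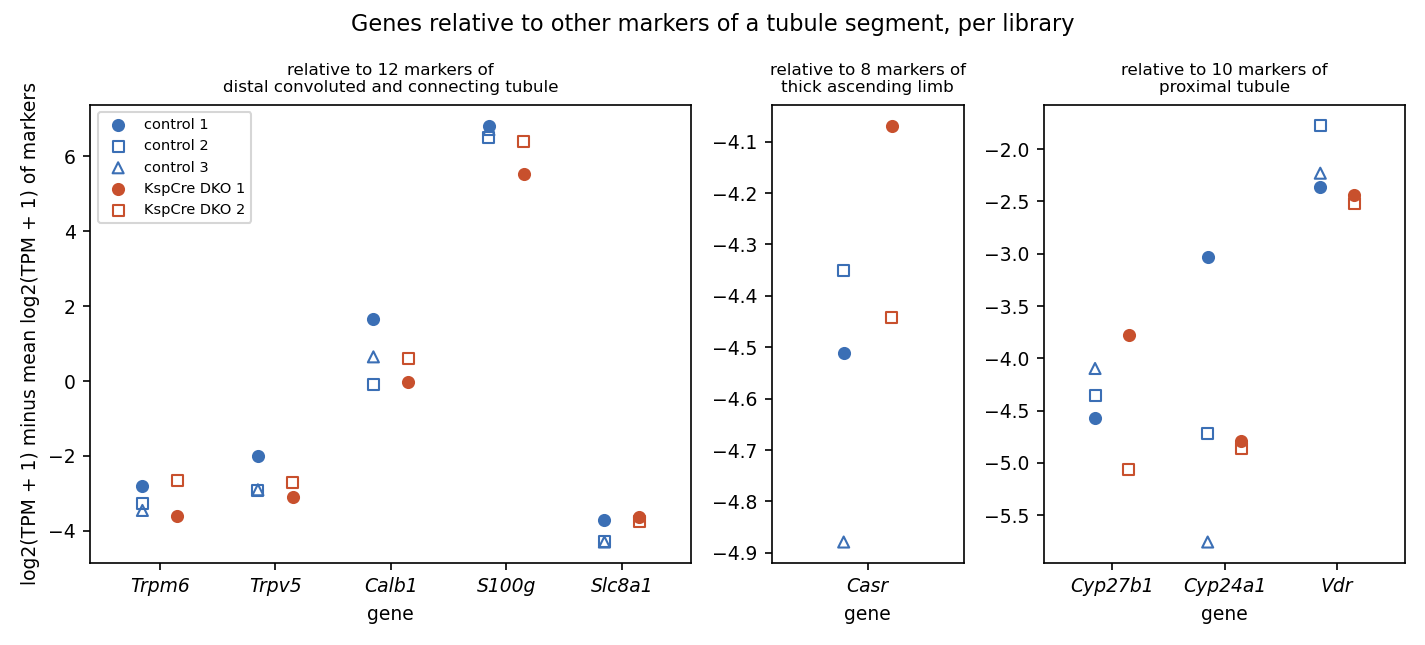
Log2(TPM + 1) of 9 genes minus the mean log2(TPM + 1) of markers of a tubule segment (y axes, separate scales), in control (blue) and KspCre DKO (orange) libraries. S100g at 5.53 and 6.39 lies below the controls, though not once the marker Tbx3 is left out, and Casr at -4.07 and -4.44 overlaps them.

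Other genes of calcium, magnesium and vitamin D handling were read from 4 lists of 54 genes, of which 47 were tested and 7, among them Cldn14, Kcna1 and Cyp2r1, were too low. None passed (limma adjusted p below 0.05), and 5 of 47 had an unadjusted p below 0.05, 4 of them lower, near the 10.3% of all tested genes. Lower estimates were found for 31 and higher ones for 16, where 61.7% of all tested genes were lower, with a median log2 fold change of -0.21. The groups lay wholly apart for 11 lower and 6 higher genes of 47, where the shares over all tested genes are 15.6% and 10.5%.

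In the list of other magnesium handling, 7 of 13 tested genes were lower and 6 higher, with a median of -0.19 that became 0.09 with quantile normalization. Egf, whose product raises Trpm6 activity in the distal tubule, stood at 246, 382 and 238 TPM in control libraries against 132 and 70.5 TPM, with groups wholly apart. Its log2 fold change was -1.54 ± 0.35 (SE; 95% interval -2.33 to -0.74, limma adjusted p = 0.173). The potassium channel gene Kcnj10 stood at 12.5, 17.2 and 14.2 against 7.54 and 9.05 TPM (limma adjusted p = 0.439). Trpm7, the widely expressed relative of Trpm6, stood at 50.5, 45 and 44.9 against 36.6 and 19.7 TPM (limma adjusted p = 0.459). Both were lower in each KspCre DKO library than in each control.

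Among other calcium transport genes and their regulators, 10 of 14 were lower and 4 higher, with a median of -0.27 that was -0.08 with quantile normalization and -0.17 with median-of-ratios scaling. Sgk1, a kinase of the aldosterone response that also acts on calcium channels, stood higher at 119, 81.1 and 74.8 against 352 and 151 TPM. The log2 difference of 1.35 ± 0.39 (SE) did not pass (limma adjusted p = 0.282), and it was 0.74 without KspCre DKO replicate 1. Atp2b4, a second plasma membrane calcium pump, stood at 4.05, 3.91 and 3.34 against 2.08 and 1.03 TPM (limma adjusted p = 0.442), unlike Atp2b1, whose values lay around those of the controls; the difference between the pumps was not tested. The kinase gene Wnk4 stood at 268, 362 and 244 against 194 and 231 TPM (limma adjusted p = 0.608).

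Claudins, which form the paracellular route, were lower in 5 of 6 tested members, with a median of -0.57, and in 5 of 6 under each scaling alternative. Cldn10, Cldn16 and Cldn19, genes of the thick ascending limb, stood at 153, 175 and 217 against 147 and 76.5 TPM, at 11.5, 19.5 and 19.4 against 13.6 and 4.82 TPM, and at 46.4, 46.4 and 59 against 52.3 and 23.4 TPM (limma adjusted p = 0.491, 0.529 and 0.667). In each the low value was that of KspCre DKO replicate 2, as for Casr, and replicate 1 lay near or among the controls. Without that library the log2 fold change of Cldn19 was 0.06.

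In the vitamin D list, 9 of 14 tested genes were lower and 5 higher, with a median of -0.08. Under each scaling alternative 6 were lower and 8 higher, so the list has no firm direction. Amn, a part of the receptor complex that takes up filtered proteins, stood at 94.8, 83.9 and 84.3 against 64.8 and 61 TPM (limma adjusted p = 0.563). Pdia3, a protein disulfide isomerase also described as a membrane receptor for vitamin D, stood at 158, 146 and 204 against 133 and 95.5 TPM (limma adjusted p = 0.53). Fdx1, a ferredoxin that supplies electrons to mitochondrial enzymes such as Cyp27b1 and Cyp24a1, stood at 70.7, 57.7 and 67.4 against 60.6 and 22.5 TPM (limma adjusted p = 0.548). Amn and Pdia3 were wholly lower, and Fdx1 was low in KspCre DKO replicate 2 alone.

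**Figure D5:**
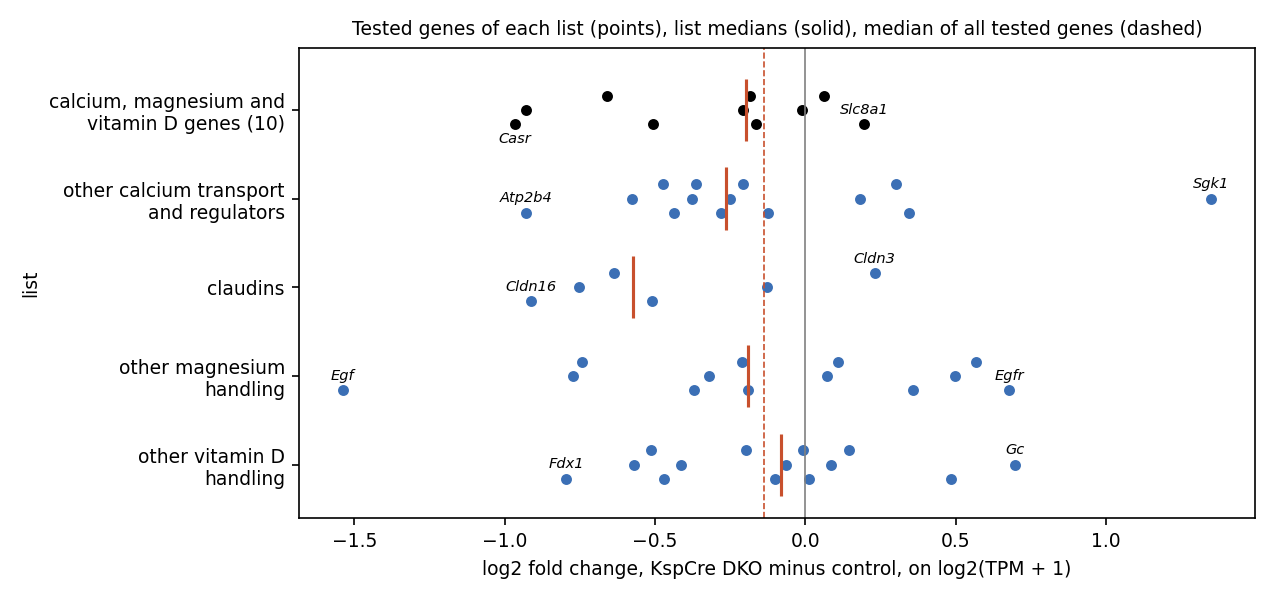
Log2 fold change (x axis, KspCre DKO minus control on log2(TPM + 1)) of each tested gene (points) in the 10 genes and 4 further lists (y axis), with list medians (solid) and the median of all tested genes (dashed, -0.14). Medians run from -0.57 for the claudins to -0.08 for the vitamin D list, with Egf at -1.54 and Sgk1 at 1.35 at the ends.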

How the data were processed

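Per the submitters' processing notes, the tools were STAR 2.2.1, RSEM 1.3.1, Trim Galore 0.5.0 and Bismark 0.19.1, with build mm10 and no roles stated. Per the labels' protocols, RNA came from RNeasy mini columns and TruSeq libraries were made from its polyadenylated part. The deposited values are TPM per gene. For annotation release and strand, nothing is stated in the sources used here. The 14 bisulfite libraries (2 whole-genome, 12 reduced-representation) are not analysed here.

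Gene IDs were paired with symbols without their version suffix, for 54079 of 54146 (99.9%). With the suffix 52480 matched, and Trpm6 and Slc8a1 were among those that did not. Positions and upstream bases are RefSeq's for GRCm38.p6, the assembly of mm10.

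Values were taken as log2(TPM + 1), genes averaging under 1 TPM were left out, and groups were compared two-sided with limma 3.58.1 (R 4.3.3, trended empirical Bayes), adjusted by Benjamini-Hochberg over all 13963 tested genes. The fit was also run on simulated data, with all 5 libraries drawn around control means with the same spread and changes set in some genes. That run does not cover unequal libraries such as KspCre DKO replicate 2. Intervals are 95% and come from the fit. No batch is given in the labels. Named genes are all 10 members, the 3 genes of smallest p in each further list, the 2 most abundant markers of each cell type (1 marker list is not reported here) and Dnmt3a, Dnmt3b, Xist and Ddx3y; Ctps2, Pfdn4, Tbx3, and the untested genes, were named after their values were seen. Members and lists were chosen with earlier results of these data known. Alternatives were pseudocounts of 0.1 and 5, no filter or a mean of at least 5 TPM, 3 scalings, 3 weightings or variance settings, the replicate block and each library left out. Levels relative to segment markers, and leaving each marker out, were chosen after seeing the data.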

Additional observations from a re-analysis of the deposited data

How the results depend on the processing

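None of the 10 genes was called in any of 156 refits over 16 alternatives; Trpm6, Trpv5, Slc8a1 and Casr were not in the refit at a mean of at least 5 TPM. The sign held in 139 refits, and in all of them for Trpv5, Calb1, S100g and Casr. Atp2b1 stood at 0.09 with median-of-ratios scaling, 0.058 with quantile normalization, 0.089 without mitochondrially encoded genes and 0.058 with the replicate block; Cyp27b1 at -0.039 with a pseudocount of 0.1; and Cyp24a1 at 0.11 with array weights. Relative to segment markers, on log2(TPM + 1) only, Trpm6 stood at 0.053 (0.275 without the marker Tbx3), Casr at 0.325 and Cyp27b1 at -0.081. With 1 library left out the log2 fold change ran from -0.44 to 0.11 for Trpm6, -0.067 to 0.46 for Slc8a1, -0.35 to 0.32 for Atp2b1, -0.87 to 0.45 for Vdr, -0.93 to 0.73 for Cyp24a1, -1.20 to 1.32 for Cyp27b1 and -1.07 to 0.056 for Cldn19. The median of the 10 genes ran from -0.62 to 0.005, beside -0.39 to 0.13 for all tested genes; the ends are without KspCre DKO replicate 1 and without replicate 2, where the remaining library is assumed to vary like the controls. The cause was not tested.

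The count of genes wholly lower was 1 with a mean of at least 5 TPM, where 6 genes are in the fit. It was 2, Casr and S100g, with median-of-ratios scaling and with quantile normalization. With 1 library left out it was 3 to 6 (6 without KspCre DKO replicate 1). The count wholly higher was 1, Slc8a1, with quantile normalization and 0 to 4 with 1 library left out (4 without KspCre DKO replicate 2). Of the further lists 0 to 2 genes were called with 1 library left out; the 2 were Egf and Fdx1, without KspCre DKO replicate 1 (limma adjusted p = 0.0459 and 0.0451). Quantile normalization moved the median of all genes from -0.14 to -0.02 and that of the 10 genes from -0.20 to -0.10, and median-of-ratios scaling moved that of all genes to -0.03. Calls over all genes, 9 lower and 14 higher, were then 7 and 35 with quantile normalization and 7 and 23 with median-of-ratios scaling. With the replicate number as a block, control replicate 3 has no partner and adds nothing to the estimates. The median of the 10 genes was then -0.52, beside -0.11 for all tested genes, and none of the 10 was called. The numbers share no stated origin. Deviations of same-numbered libraries correlated at 0.093 and 0.028, and those of control 3 and KspCre DKO replicate 2, numbered differently, at 0.071. The deviations of the 2 KspCre DKO libraries mirror each other, so these values cannot decide whether the numbers mark pairs.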
